A study of Mus musculus with 4 samples.

Results

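The cytosolic ribosomal protein genes were examined in dendritic cells, the immune cells that present antigen to T cells, cultured from the bone marrow of C57BL/6 mice. Members were taken by symbol (Rpl or Rps followed by digits and at most 1 of the letters a, x, y, l or p, with Rplp0, Rplp1, Rplp2 and Rpsa), which gave 64 genes on 104 probe sets out of 22180 genes with a probe set of their own. Of these, 40 were named for the large subunit and 24 for the small subunit. All cells were harvested on day 7. In the sulforaphane group, this plant isothiocyanate, known as an activator of NRF2, was given for 2 h at 0.3 µM in DMSO, and the control group had DMSO alone. Both groups were then given 100 ng/ml of lipopolysaccharide (LPS, the bacterial ligand of TLR4) for 1 h, so no group without LPS was compared. Each group had 2 arrays. Separate mice or cultures for the replicates are not stated in the labels, so p-values reflect the spread among these arrays alone, and that spread may be technical. The comparison asks what sulforaphane given before LPS does to transcripts, here those of the protein synthesis machinery.

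The cytosolic ribosome has a small subunit, which reads the mRNA, and a large subunit, which forms the peptide bond. Ribosomal proteins are made in near-equal amounts from abundant, long-lived mRNAs. Most of these mRNAs begin with a C followed by a run of pyrimidines, the terminal oligopyrimidine (TOP) tract, through which mTORC1 and LARP1 control their translation more than their amount. An array measures the amount of mRNA and not its use by ribosomes. Assembly of the subunits takes place largely in the nucleolus and needs many further factors, a number of which are targets of MYC.

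Start site sequences were available from RefSeq (build GRCm38.p6) for 49 of the 64 members. A TOP-like tract was counted where a C within 5 bases of the RefSeq start, on the sense strand, was followed by at least 4 bases that were each C or T. A member with several RefSeq starts counted as having a tract where any start had one. Of the members printed below, Rps24 has another start, not shown, without a tract. The windows below run from 15 bases before the start to 15 from it on, 5′ to 3′, with the tract in capitals. They were chosen from members at both ends and in the middle of the range of differences given further on, 7 with a tract and 4 without.
Rps6: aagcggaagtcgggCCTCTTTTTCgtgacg
Rpl35: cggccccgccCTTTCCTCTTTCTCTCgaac
Rpl28: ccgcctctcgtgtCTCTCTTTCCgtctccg
Rps24: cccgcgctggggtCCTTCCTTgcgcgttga
Rpl38: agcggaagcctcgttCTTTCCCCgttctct
Rps9: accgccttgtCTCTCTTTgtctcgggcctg
Rps23: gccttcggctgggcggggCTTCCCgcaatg
Rpl5: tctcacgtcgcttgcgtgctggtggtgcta
Rps28: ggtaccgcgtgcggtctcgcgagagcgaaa
Rps3: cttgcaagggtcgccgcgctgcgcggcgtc
Rpl37: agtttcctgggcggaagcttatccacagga

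The windows lie at chr4:86857353-86857382 (minus strand) for Rps6, chr2:39005117-39005146 (minus) for Rpl35, chr7:4792950-4792979 (plus) for Rpl28, chr14:24490663-24490692 (plus) for Rps24 and chr11:114668565-114668594 (plus) for Rpl38. That of Rps9 is chr7:3704026-3704055 (plus), that of Rps23 chr13:90923107-90923136 (plus), that of Rpl5 chr5:107900513-107900542 (plus), that of Rps28 chr17:33824548-33824577 (minus), that of Rps3 chr7:99483695-99483724 (minus) and that of Rpl37 chr15:5116598-5116627 (plus). A tract was found in 21 of the 49 members (42.9%), against 21.2% of 27025 genes in the whole table. On the other strand, searched in the same way, the shares were 12.2% and 24.4%. With the C exactly at the RefSeq start, the shares on the sense strand were 22.4% of members and 3.01% of all genes. RefSeq starts can lie some bases from the site the cell uses, so a missing match says only that the letters are not in this window.

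Expression values are log2 intensities, normalized by the authors, and a difference of 1 on this scale is a doubling. Where a gene had several probe sets, the one that was brightest on average over the 4 arrays stood for it, and 62 of the 64 members passed the filter on low values (a mean above 2.91). The 2 that did not were Rpl10l, a testis-expressed relative of Rpl10, and Rpl32l. The probe set values of members spread widely, with a mean of at least 8 for 33 members and of under 6 for 25. Members with a mean under 8 were described apart, a boundary set after the values were seen. RefSeq types 2 of the 64 members, Rpl6l and Rps4l, as pseudogenes, and processed copies elsewhere in the genome can share probes with any member.

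The arrays of the series had medians between 3.24 and 3.27. The interquartile range was narrower in DMSO replicate 1 (3.41) than in the other arrays (3.61 to 3.62). All 11 dendritic cell markers on the arrays passed the filter, with means from 4.72 to 11.7, but so did 9 of 9 macrophage, 9 of 9 granulocyte and 5 of 5 mast cell markers. Of the lymphocyte markers, 3 of 4 for B cells and 2 of 4 for T cells passed, none with a mean above 4.22. The difference, sulforaphane minus DMSO, of macrophage markers was below 0 in 8 of 9 cases, 5 of them without overlap between groups (19.5% of all genes tested were lower and 24% higher without overlap; median -0.12), with summed log2 values of 84.4 and 85.2 in DMSO and 83.2 and 83.3 after sulforaphane. For dendritic cell markers the sums were 95.9 and 97.6 in DMSO and 94.6 and 94.8 after sulforaphane, with 3 of 11 higher and 5 lower without overlap. Mast cell markers lay below 0 in 4 of 5 cases, with 2 lower without overlap. Of the lymphocyte markers tested, 3 of 3 for B cells and 2 of 2 for T cells lay below 0. Granulocyte markers lay above 0 in 6 of 9 cases, with 1 higher and 1 lower without overlap. The part of these cell types in the values below was not tested. In RNA from a whole culture, fewer cells of a type and less RNA per cell cannot be told apart.

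No ribosomal protein gene changed past the threshold. Of 62 members tested, 0 had an adjusted p under 0.05 by limma, where 0.13% of all 14652 genes tested did (19 genes). Of those genes 9 were higher (0.0614% of all) and 10 lower (0.0683%), a split that was 41 and 102 after each array was centred on the tested genes. An unadjusted p under 0.05 was reached by 1 member, against 13% of all genes, and 0 members differed by more than 1.5-fold, against 2.85% of all genes. The smallest adjusted p of any member was 0.345, that of Rpl37. The 95% interval of the difference lay within 1.5-fold in both directions for 51 of the 62 members, and for 32 of the 33 with a mean of at least 8. For those 51 genes a larger difference than this lies outside the interval, while smaller ones remain possible.

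**Figure D1:**
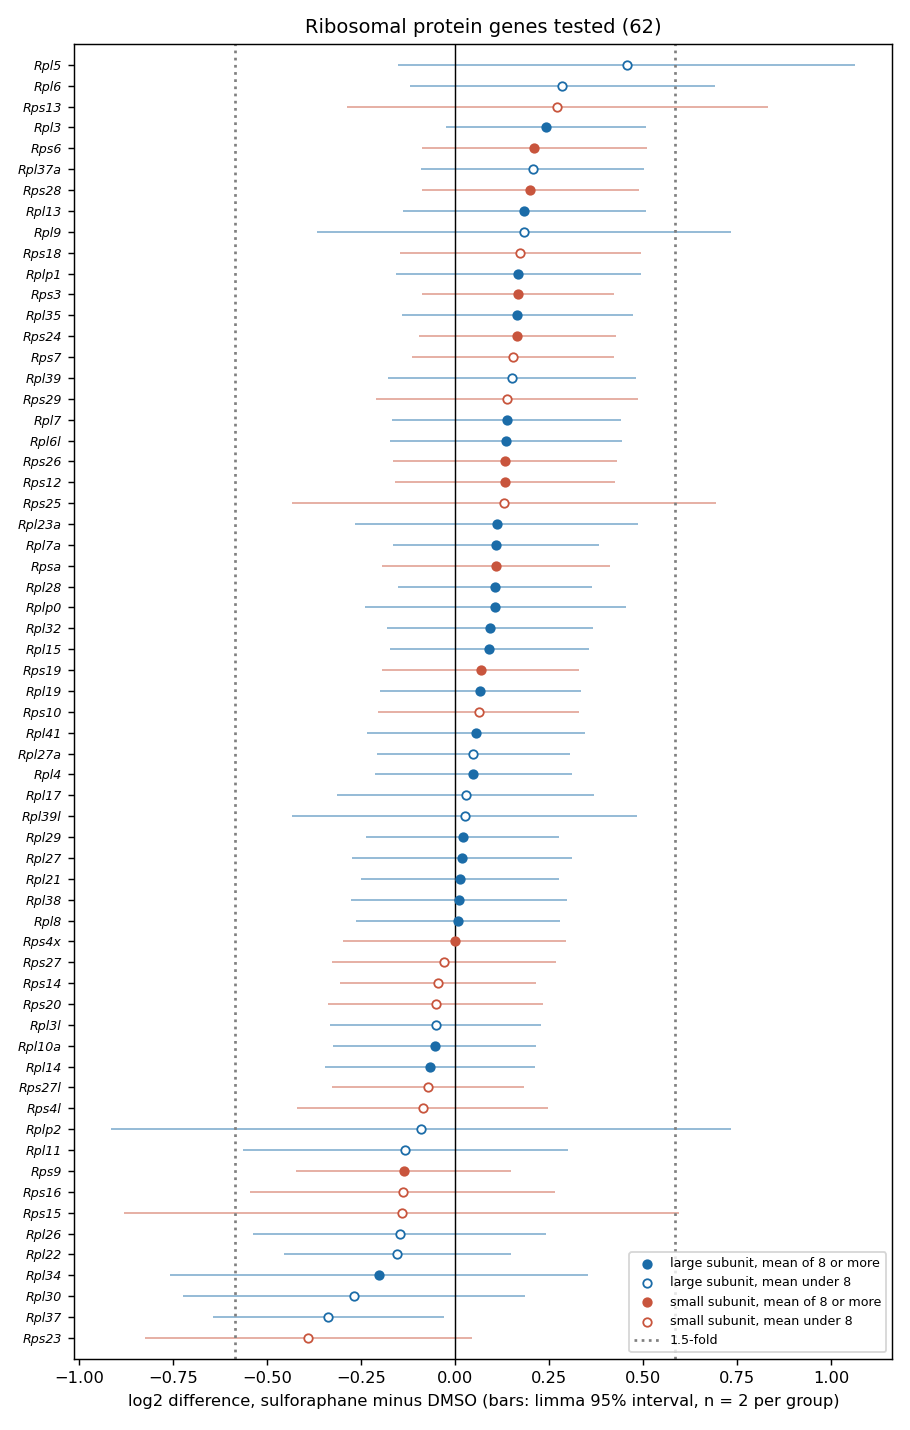
Log2 difference (sulforaphane minus DMSO) of each of the 62 tested members, with bars for the limma 95% interval and filled points for members with a mean of at least 8. Points run from -0.39 (Rps23) to 0.46 (Rpl5), all inside the dotted lines at 1.5-fold, and the intervals of filled points are mostly narrower than those of open ones.

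The members' small differences lay above 0 more often than below, 42 against 20, with a median of 0.065 (quartiles -0.052 and 0.15). The median over all genes tested was 0.018, with 54.2% above 0. Groups without overlap, both sulforaphane arrays above both DMSO arrays, were found for 17 members (27.4%), against 24% of all genes. Both lay below for 4 members (6.45%), against 19.5% of all genes. The higher share is thus near the background and the lower share is under it. For the large subunit, 28 of 38 tested members lay above 0 (median 0.051), with 10 higher and 1 lower without overlap. For the small subunit it was 14 of 24 (median 0.088), with 7 higher and 3 lower.

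Members with high and with low values gave different counts. Of 33 members with a mean of at least 8, 28 lay above 0, with a median of 0.11 and with 13 higher and 1 lower without overlap. Over all 4154 tested genes with such a mean, the median was 0.021, 56.0% lay above 0, 24.96% were higher and 21.4% lower without overlap. The 29 members under 8 had a median of -0.029, with 14 above 0 and 15 below. The difference between these sets of members was not tested. Centring on the tested genes lowered all genes alike: the median of all genes went from 0.018 to -0.044 and that of the 62 members from 0.065 to 0.0024, so the members' place relative to all genes stayed as it was while the count above 0 went from 42 to 32. The median of the 33 members was then 0.044.

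The DMSO arrays did not read the members alike. Relative to each gene's own mean over the 4 arrays, the members' median was -0.067 in DMSO replicate 1, 0.0053 in DMSO replicate 2, and 0.029 and 0.028 in the sulforaphane arrays. DMSO replicate 1 was the lowest of the 4 arrays in 29 of 62 members (46.8%), against 36.8% of all genes. With a mean of at least 8 it was the lowest in 18 of 33 members (54.5%), against 40.5% of all such genes. Without DMSO replicate 1 the members' median was 0.026, with 24 higher and 15 lower without overlap, when the shares over all genes were 35.6% and 36.3%. Without DMSO replicate 2 the median was 0.11, with 36 higher and 12 lower (45.3% and 33.1% over all genes). For the 33 members with high values, the medians without these arrays were 0.040 and 0.11.

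**Figure D2:**
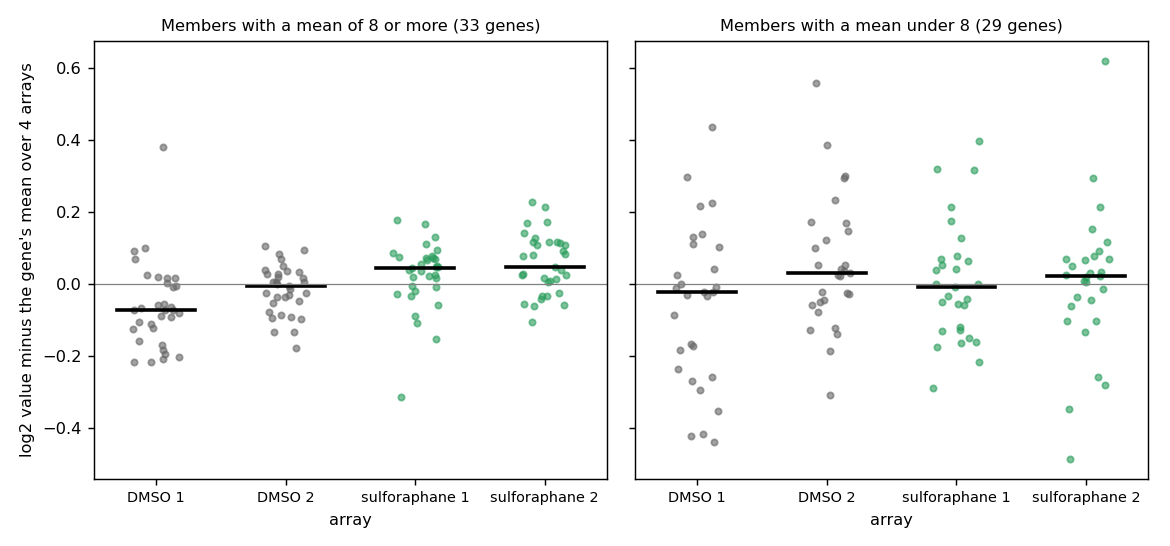
Each point is a member's log2 value in an array minus its mean over the 4 arrays, and black bars are medians, for members with a mean of at least 8 (left) and under 8 (right). On the left the DMSO replicate 1 bar is the lowest, at -0.073, with DMSO replicate 2 at -0.0064 and the sulforaphane arrays at 0.043 and 0.048, while on the right the points scatter more widely.

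Among proteins of the small subunit, Rps6 and Rps3 have known roles in signalling. Rps6, the substrate of S6 kinase downstream of mTORC1, read 11.92 and 12.15 in DMSO and 12.23 and 12.26 after sulforaphane. Both sulforaphane arrays lay above both DMSO arrays, but the gap was smaller than that between the DMSO arrays, and the difference was 0.21 ± 0.12 (SE, n = 2 per group, adjusted p = 0.536 by limma). Rps3, which also binds the NF-kB subunit p65, read 10.50 in each DMSO array and 10.66 and 10.67 after sulforaphane. These replicates were close together, and the groups did not overlap. The difference was 0.17 ± 0.10 (95% interval -0.087 to 0.42, adjusted p = 0.571).

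Further small subunit genes with groups that did not overlap were Rps28 (0.20), Rps24 (0.16), Rps7 (0.15) and Rps26 (0.13), which were higher, and Rps23 and Rps9, which were lower. Rps23, a protein of the decoding centre, read 5.88 and 5.40 in DMSO and 5.32 and 5.19 after sulforaphane. DMSO replicate 2 was nearer to the sulforaphane arrays than to DMSO replicate 1, and the difference of -0.39 ± 0.18 did not pass (adjusted p = 0.434). Rps9 differed by -0.14 on the probe set used, where it read 9.997 and 9.93 in DMSO and 9.74 and 9.91 after sulforaphane.

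Rps19, Rpsa and Rps25, which also have named roles, differed by less on the probe sets used. Rps19, the gene most often mutated in Diamond-Blackfan anaemia, differed by 0.068 ± 0.11 (10.54 and 10.62 in DMSO, 10.63 and 10.66 after sulforaphane). Rpsa, which also acts as a laminin receptor, read 10.67 and 10.51 in DMSO and 10.61 and 10.78 after sulforaphane, with overlapping groups. Rps25, needed by several viral internal ribosome entry sites, read 5.62 and 6.33 in DMSO and 6.10 in each sulforaphane array, so its DMSO arrays enclosed both. The difference of Rps25, 0.13 ± 0.23, was -0.23 without DMSO replicate 1. A brighter probe set shared by Ccdc84 and Rps25, left out of the comparison, read 6.84 and 7.02 in DMSO. After sulforaphane it read 7.23 and 7.21, a difference of 0.30 without overlap. The groups of Rps19 did not overlap, by a gap smaller than its SE.

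The stalk of the large subunit, which recruits elongation factors, is built from Rplp0, Rplp1 and Rplp2. Rplp1 read 12.35 and 12.32 in DMSO and 12.36 and 12.64 after sulforaphane, a difference of 0.17 ± 0.13 that came from sulforaphane replicate 2. Rplp0 read 10.35 and 10.27 in DMSO and 10.25 and 10.58 after sulforaphane (0.11 ± 0.14). That difference turned to -0.055 without sulforaphane replicate 2. The probe set of Rplp2 read 3.01 and 3.69 in DMSO and 3.70 and 2.82 after sulforaphane, near the array medians and with overlap. Its difference of -0.090 ± 0.34 was 0.25 without DMSO replicate 2.

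Rpl5 and Rpl11 join the 5S rRNA in a particle that can bind MDM2 and so restrain the breakdown of p53. Rpl5 had the largest positive difference of all members, 0.46 ± 0.25 (95% interval -0.15 to 1.06, adjusted p = 0.515). Its values were 3.41 and 3.49 in DMSO and 3.52 and 4.30 after sulforaphane, so 1 array made the difference, on a probe set near the array medians. A brighter probe set, shared with Rpl5-ps2 and left out of the comparison, read 6.03 and 6.04 in DMSO. It read 6.16 and 5.97 after sulforaphane, a difference of 0.030 with overlap. Rpl11 read 3.59 and 4.06 in DMSO and 3.61 and 3.77 after sulforaphane. Its difference of -0.13 ± 0.18 turned to 0.10 without DMSO replicate 2.

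Of the other large subunit genes, the largest differences between groups that did not overlap were those of Rpl3, Rpl37a and Rpl35, which were higher, and Rpl37, the 1 that was lower. Smaller differences without overlap were found for Rpl28, Rpl7a (0.11), Rpl32 (0.094), Rpl15 (0.091) and Rpl27a (0.048), all higher. Of these, the probe set of Rpl27a had a mean of 3.25, near the array medians. Rpl3, next to the peptidyl transferase centre, read 9.87 and 9.84 in DMSO and 10.05 and 10.15 after sulforaphane. Within each group these arrays lay close together, and the difference was 0.24 ± 0.11 (95% interval -0.023 to 0.51, adjusted p = 0.427). Rpl37a differed by 0.21 (4.91 and 5.07 in DMSO, 5.27 and 5.13 after sulforaphane) and Rpl35 by 0.17 (12.10 and 12.34 in DMSO, 12.39 and 12.38 after sulforaphane). Rpl28, with the tract shown above, differed by 0.11 ± 0.11, from 11.68 and 11.69 in DMSO to 11.76 and 11.82 after sulforaphane. Rpl37, the single member with an unadjusted p under 0.05 (0.0363), read 4.78 and 4.69 in DMSO and 4.51 and 4.29 after sulforaphane. Its difference was -0.34 ± 0.13 (95% interval -0.64 to -0.030).

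Rpl38, which favours translation of a subset of Hox mRNAs, differed by 0.0093 ± 0.12, with DMSO at 10.63 and 10.80 and sulforaphane at 10.77 and 10.69. Rpl22, a tumour suppressor in T cell lymphoma, differed by -0.15 ± 0.12 with overlapping groups. Of the tissue-restricted paralogues, Rpl3l, the striated muscle form of Rpl3, read 3.02 to 3.17 on all arrays, and the Rpl39 relative Rpl39l 3.76 to 4.25. Rps27l, a p53 target, read 7.85 and 7.84 in DMSO and 7.78 and 7.77 after sulforaphane. Its groups did not overlap, but the difference of -0.071 was below its SE of 0.10.

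Several genes had probe sets that did not give the same answer. Of 24 members with several probe sets, 22 had at least 2 above the filter, and in 12 of these the differences had opposite signs or lay more than 0.25 apart. Rpl3 stood out: a second probe set read 9.04 and 8.66 in DMSO and 8.37 and 7.92 after sulforaphane. That difference was -0.71 ± 0.20 (adjusted p = 0.247 by limma with every probe set tested), opposite to the 0.24 of the probe set used. In both, the groups did not overlap. The mean of all the gene's probe sets differed by -0.080, which includes another with a mean of 2.85, below the filter (difference 0.23). Rps9 gave -0.14 on the probe set used and 0.23 on the other, again without overlap in either. Rps24 ran from -0.0098 to 0.47 and Rpl41, a protein of the large subunit, from 0.018 to 0.30 over 5 probe sets.

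The other members whose probe sets disagreed had ranges narrower than those of Rpl3, Rps9 and Rps24. Rps12 had 8 probe sets, of which 6 held identical values (difference 0.23) beside 0.13 on the one used and -0.020 on another. Differences ran from -0.12 to 0.17 for Rpl35, from -0.16 to 0.14 for Rpl7 and from -0.055 to 0.18 for Rpl9. In Rpl19, Rpl21, Rpl27 and Rps19 they changed sign within 0.25. Identical values also occurred in a pair of probe sets each of Rpl23a and Rps19. What each probe set hybridises to, mature mRNA or another part of the locus, was not tested.

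**Figure D3:**
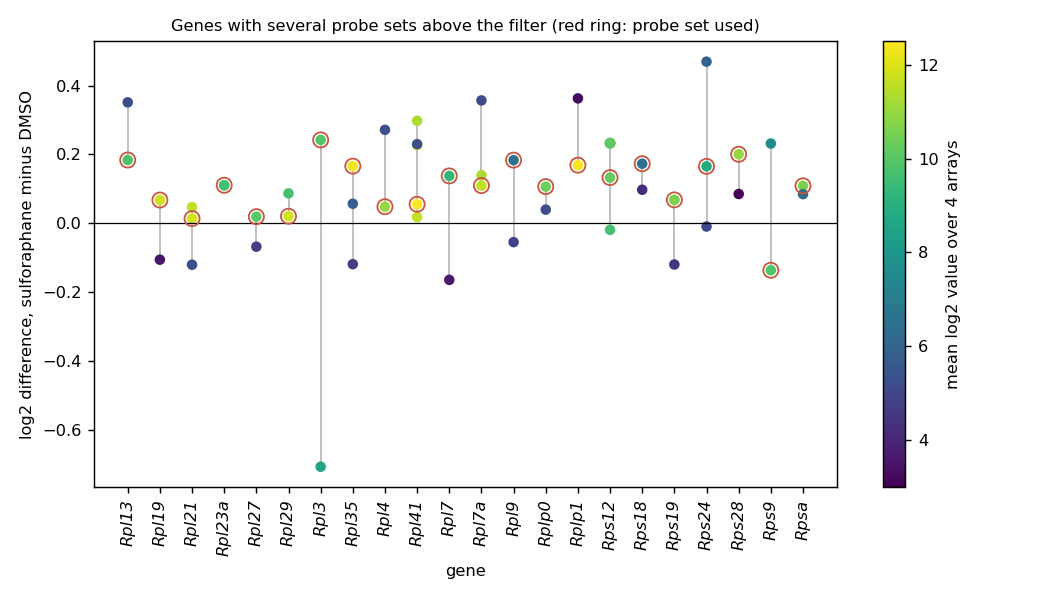
Log2 difference of every probe set above the filter for the 22 members with several, coloured by mean log2 value, with a red ring on the probe set used and a line joining those of a gene. Rpl3 has the widest range, from -0.71 to 0.24, and in Rps9 the ringed point lies below 0 and the other above it.

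Members with and without a tract found at the RefSeq start had nearly the same median difference. The 20 tested members with a tract had a median difference of 0.065 (8 higher and 3 lower without overlap), and the 27 tested members with a start sequence and no tract had 0.068 (6 higher and 1 lower), where 24% of all genes were higher and 19.5% lower. Whether these counts differ was not tested. The lower end of the range held both kinds: of the windows printed above, Rps23 (-0.39) has a tract where Rpl37 (-0.34) has none. The highest difference of a member with a tract was that of Rps6 (0.21). Members with a start sequence that lay above it were Rpl5 (0.46, on a probe set near the array medians), Rpl6 (0.28) and Rps13 (0.27). In their windows no tract was found. A missing match does not show that an mRNA lacks a tract, so these sets cannot stand for TOP and other mRNAs.

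The median difference of factors that build ribosomes lay below 0, where that of the 62 ribosomal protein genes was 0.065 (-0.029 for the 29 with a mean under 8). Of 98 ribosome biogenesis genes tested (RNA polymerase I, nucleolar processing and assembly), 67 lay below 0 and 31 above, with a median of -0.083. Both sulforaphane arrays lay below both DMSO arrays in 38 of them (38.8%, against 19.5% of all genes) and above in 13 (13.3%, against 24%). None passed over all genes by limma, and 12 (12.2%) had an unadjusted p under 0.05, near the 13% of all genes. The smallest p was that of Rrp1b, a nucleolar protein of rRNA processing, which read 6.51 and 6.23 in DMSO and 5.59 and 5.72 after sulforaphane (-0.72 ± 0.14, adjusted p = 0.125). Rrs1, needed for assembly of the large subunit, differed by -0.53 ± 0.12 (adjusted p = 0.165), and Bysl, which acts in maturation of the small subunit, by -0.51 ± 0.12 (0.184). The groups of each did not overlap. The list's median was -0.034 without DMSO replicate 2, where that of all genes was 0.039. After centring on the tested genes it was -0.15, where that of all genes was -0.044. The median of the ribosomal protein genes was then 0.0024, with 32 above 0 and 30 below. The difference between this list and the ribosomal proteins was not tested.

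**Figure D4:**
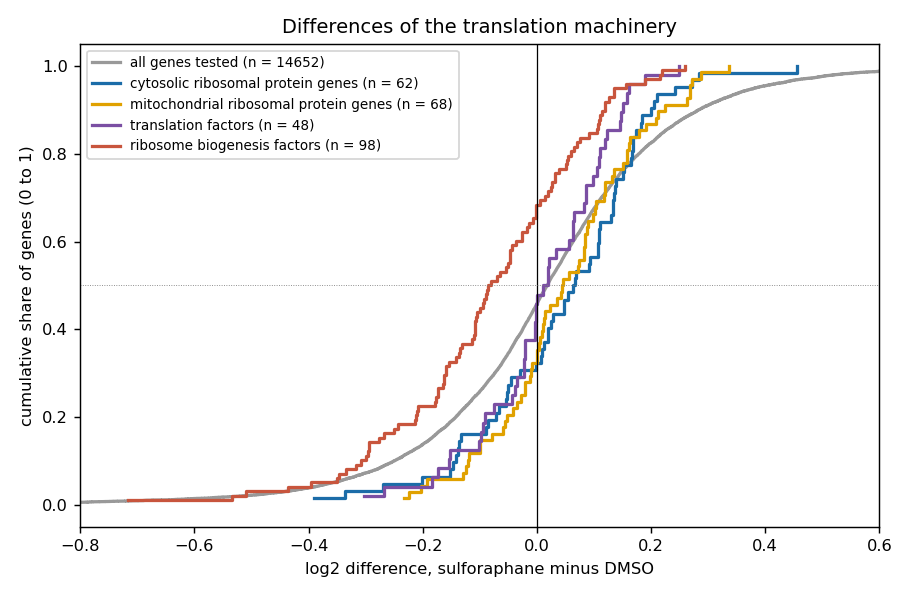
Cumulative share of genes against the log2 difference (sulforaphane minus DMSO) for all genes tested, 62 cytosolic and 68 mitochondrial ribosomal protein genes, 48 translation factors and 98 ribosome biogenesis factors; the axis leaves out differences beyond its ends. The curve of biogenesis factors crosses the middle line at -0.083, left of 0, and that of cytosolic ribosomal proteins at 0.065.

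Mitochondrial ribosomal proteins are encoded in the nucleus and serve the separate ribosome of mitochondria. Their genes had a median of 0.045, with 44 of 68 above 0. Groups did not overlap in 15 that were higher (22.1%, against 24% of all genes) and 10 that were lower (14.7%, against 19.5%). By limma 0 passed, and 2 (2.94%, against 13% of all genes) had an unadjusted p under 0.05. Those with the smallest p were Mrpl57 (0.29 ± 0.11), Mrps11 (0.27 ± 0.11) and Mrpl49 (0.26 ± 0.11), with adjusted p between 0.342 and 0.393. Translation factors had a median of 0.015, with 25 of 48 above 0, 10 higher (20.8%) and 5 lower (10.4%) without overlap, and 0 that passed or had an unadjusted p under 0.05. They included Eif1a, of start codon recognition (-0.27 ± 0.11), Eif2s2, a subunit of the initiator tRNA carrier (-0.30 ± 0.17) and the exchange factor subunit Eif2b4 (0.25 ± 0.15).

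Non-coding hosts of small nucleolar RNAs, many of which begin with a TOP tract too, had a median of -0.038 over 12 tested. Without overlap, 2 were higher and 2 lower (16.7% each, against 24% and 19.5% of all genes). The smallest p were those of Snhg17 (-0.29 ± 0.11, adjusted p = 0.353), Snhg7 (-0.25) and Snhg15 (0.11). Ribosomal genes outside the symbol rule gave 0.094 for Fau, the ubiquitin-like fusion of a small subunit protein, -0.17 for Rpl22l1, a paralogue of Rpl22, and -0.054 for Rpl7l1. The other gene of this list that was tested, Rps3a1, gave 0.041.

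Among regulators of growth and mTORC1, Myc, Ddit4 and Tsc1 had the smallest p. Myc, a transcription factor that drives ribosome biogenesis, read 8.94 and 8.91 in DMSO and 7.90 and 7.93 after sulforaphane. The arrays of each group lay close together, and the difference was -1.01 ± 0.11 with an adjusted p of 0.0510 by limma, just above the threshold. Ddit4, a stress-induced brake on mTORC1, read 8.35 and 8.05 in DMSO and 7.26 and 7.27 after sulforaphane (-0.94 ± 0.14, adjusted p = 0.0683). Tsc1, a subunit of the TSC complex that restrains mTORC1, differed by 0.52 ± 0.12 (adjusted p = 0.188). Over all 22 tested genes of this list the median was 0.025, with 4 higher and 4 lower without overlap (18.2% each, against 24% and 19.5% of all genes). By limma 0 passed, and 6 (27.3%, against 13% of all genes) had an unadjusted p under 0.05. Myc and Ddit4 passed with the filter at the 60th percentile, a second quantile normalization, an intensity trend or centring on the tested genes, and Myc also with the mean of probe sets.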

How the data were processed

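Biotin-labelled cRNA from 4 RNA samples was hybridised to Affymetrix arrays, per the labels' protocols. The submitters' processing notes name RMA and R 2.15.1, and the deposited values were read as log2, since the table states no base. RMA corrects background, applies quantile normalization across arrays and combines probes into probe sets. Sources used here give no further filter. Quantile normalization removes any change in total mRNA, and the number of arrays limits the precision.

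Of 41345 probe sets, 25335 were in the platform annotation, 23521 with 1 symbol. The brightest single-symbol probe set stood for a gene, and 14652 genes were tested, those whose mean exceeded the 40th percentile over probe sets. limma 3.58.1 (lmFit, eBayes) in R 4.3.3 compared the groups without a replicate block, with Benjamini-Hochberg adjustment over all tested genes and a threshold of 0.05. The procedure was tested on simulated data. Errors are moderated standard errors. Genes named were members past the threshold, the 5 largest separated differences per subunit and direction, members with a stated role, members whose probe sets disagreed, and up to 3 genes with the smallest p per other list. Rps26, Rpl28, Rpl7a, Rpl32, Rpl15 and Rpl27a were added after their values were seen, to complete the members without overlap. Rps3a1 was also added then, to complete the ribosomal genes outside the symbol rule. Members and lists were chosen with earlier results of these data known. Alternatives were other filters, scalings, probe set summaries, a block, arrays left out, and eBayes options.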

Additional observations from a re-analysis of the deposited data

How the results depend on the processing

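No ribosomal protein gene passed the threshold under any of the alternatives run (0 throughout, and 0 with each array left out, when between 0 and 6 members had an unadjusted p under 0.05). The number of all genes past it moved from 19 (9 higher, 10 lower) to 138 (57 and 81) with the filter at the 60th percentile, 106 (34 and 72) with a second quantile normalization, 34 (23 lower) when probe sets were averaged, 249 (96 and 153) with an intensity trend and 143 (41 and 102) after centring on the tested genes, an alternative added after the data were seen. It was 0 with any array left out, when 1036 to 2850 genes had an unadjusted p under 0.05 by limma and a lone array was assumed to vary like the other group. With the replicate number as a block it was 8 (4 and 4). Same-numbered arrays did not deviate together (correlation of deviations -0.081), so the numbers were not taken as pairs. Of the other listed genes, 2 regulators (Myc and Ddit4) passed with the filter at the 60th percentile, a second quantile normalization, a trend or centring on the tested genes, 1 (Myc) when probe sets were averaged, and 0 with an array left out. No ribosome biogenesis factor, translation factor or mitochondrial ribosomal protein gene passed in any of these.

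The members' median ran from 0.026 to 0.11 with an array left out, that of the large subunit from 0.028 to 0.10 and that of the small subunit from 0.0080 to 0.11. The counts without overlap, which rise by construction with fewer arrays, ran from 24 to 36 higher and from 10 to 15 lower. Over all genes the shares higher and lower were then 35.6% and 36.3% when DMSO replicate 1 was dropped, and 45.3% and 33.1% for DMSO replicate 2. They were 37.9% and 30.8% for sulforaphane replicate 1 and 36.2% and 31.8% for sulforaphane replicate 2. After centring on the tested genes the medians were 0.0024 for all members, -0.011 for the large and 0.025 for the small subunit, with 11 higher and 6 lower, where the median of all genes was -0.044 with 16.2% higher and 26.4% lower. With a second quantile normalization the members' median was 0.041 (35 above 0 and 27 below), where that of all genes was -0.0064. The small subunit median was then 0.046. Of the 33 members with a mean of at least 8, 22 lay above 0 in that setting, with a median of 0.053. When probe sets were averaged the members' median was 0.031 (37 above 0 and 25 below), where that of all genes was 0.019. The small subunit median was then 0.032. Averaging left 22 members with a mean of at least 8, 17 of them above 0 (median 0.092). In the main comparison the medians of members with such a mean were 0.11 for all, 0.091 for the large and 0.13 for the small subunit, with 1 lower. The share of members with a tract was 22.4% with the C exactly at the start. Centring shifts all genes alike, and the causes of the other shifts were not tested. Signal limits the 29 tested members with a mean under 8.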

Other observations

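Probe sets that name a ribosomal protein gene together with another gene were left out of the comparison and add 12 protein-coding genes that no probe set names alone (Rpl10, Rpl12, Rpl13a, Rpl23, Rpl24, Rpl31, Rpl35a, Rpl36, Rpl36a, Rps15a, Rps2 and Rps21). Of 57 such probe sets 56 had a mean above the filter, with a median difference of 0.070, 14 higher and 8 lower without overlap, near the shares over all genes tested (24% and 19.5%). Among the 22 with a mean of at least 8, 19 lay above 0 (median 0.11), 8 were higher and 2 lower without overlap (24.96% and 21.4% of all tested genes with such a mean), and the range was -0.11 to 0.17. DMSO replicate 1 was the lowest array in 10 of these 22, as in many of the members, and in 40.5% of all tested genes with such a mean. Its part was not tested.

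For 7 members whose own probe set had a mean under 8, a shared probe set with a mean of at least 8 also names the gene: Rpl26, Rpl27a, Rpl30, Rpl37a, Rplp2, Rps16 and Rps27. The probe set shared by Rpl37a and Mir682 read 11.45 and 11.59 in DMSO and 11.65 and 11.73 after sulforaphane, a difference of 0.17. That shared by Rpl30 and Gm12191 read 10.64 and 10.66 in DMSO and 10.69 and 10.67 after sulforaphane (0.029), where the probe set of Rpl30 alone differed by -0.27. That shared by Rplp2 and Snora52 differed by 0.091, and that shared by Rps16, Rps16-ps2 and LOC100862433 by 0.12, against -0.090 and -0.14 on the probe sets naming Rplp2 or Rps16 alone. All 7 shared probe sets lay above 0, between 0.029 and 0.17.

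Of 15 probe sets annotated as ribosomal protein pseudogenes 8 had a mean above the filter, and 7 of these lay above 0 (median 0.22). Of all genes tested, 54.2% lay above 0, and 24% were higher and 19.5% lower without overlap. Rpl17-ps9 (0.37) and Rpl15-ps6 (0.32) were higher without overlap and Rps15a-ps6 (-0.25) lower, the 3 named after their values were seen. Their means were 3.66, 3.36 and 4.12, where the array medians lay between 3.24 and 3.27.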
